A study of Mus musculus with 9 samples.

Results

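Ahsa1 and 9 of its partner genes in the HSP90 and HSP70 chaperone machinery were examined in nuclear RNA of place cells and silent cells of the mouse hippocampus. The 10 genes, Ahsa1, Hsp90aa1, Hsp90ab1, Hspa8, Hspa5, Hsph1, Dnaja1, Dnajb1, Stip1 and Bag3, were taken by symbol from the 31052 gene symbols of the deposited table. Ahsa1 was chosen by its lower level in place libraries in these same data, and the partners for their roles beside it, so the difference of Ahsa1 between the groups is given below as a description, with no test. The question was whether the partners show the pattern of Ahsa1.

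The 9 libraries were made from nuclei of pyramidal cells, the excitatory principal neurons of the hippocampus. In 5 libraries the cells had been classed as place cells, neurons active at particular spots of an environment, and in 4 as silent cells, after imaging in mice that moved through space. Nuclei of the chosen cells were marked with light and collected, and their RNA was converted to libraries with a kit for small amounts of polyadenylated RNA. All 9 libraries carry the genotype WT, and no treatment or age is named in the labels. Neither the number of nuclei per library nor whether each library is a separate animal is stated in the sources at hand. P-values therefore measure the spread between these libraries, which may be technical in part.

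HSP90 is an abundant chaperone that completes the folding of kinases, steroid receptors and other client proteins in a cycle driven by ATP. Clients often reach it from HSP70, which binds unfolded stretches with the help of J-domain proteins and releases them with the help of nucleotide exchange factors. Ahsa1 encodes AHA1, the cochaperone that most strongly stimulates the ATPase of HSP90, and neurons use the whole system to maintain receptors, kinases and synaptic proteins. Many of these genes are induced together when heat shock factor 1 binds heat shock elements, repeated GAA and TTC units in their promoters.

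The sequences just before the start sites show how far the genes share such elements. The promoter table (RefSeq, GRCm38.p6) held 7 of the 10 genes, and Hsp90aa1, Hsp90ab1 and Hspa8 had no entry. The 250 bases before each start were searched on both strands for a pair of facing units, GAANNTTC or TTCNNGAA, for 3 such units in a row, for TATAAA and for the endoplasmic reticulum stress element. The window of Ahsa1 is shown because the report turns on this gene, and those of Hsph1, Dnaja1 and Hspa5 because they hold one of the stress elements, printed in capitals. The windows lie at chr12:87266478-87266727 (plus strand) for Ahsa1, chr5:149636337-149636586 (minus strand) for Hsph1, chr4:40722218-40722467 (plus strand) for Dnaja1 and chr2:34771840-34772089 (plus strand) for Hspa5, each read 5′ to 3′ and ending next to the start.
Ahsa1: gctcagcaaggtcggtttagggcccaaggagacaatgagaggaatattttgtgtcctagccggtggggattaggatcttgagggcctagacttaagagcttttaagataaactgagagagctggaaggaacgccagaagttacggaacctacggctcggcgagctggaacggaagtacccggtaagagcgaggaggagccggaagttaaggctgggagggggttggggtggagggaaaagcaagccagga
Hsph1: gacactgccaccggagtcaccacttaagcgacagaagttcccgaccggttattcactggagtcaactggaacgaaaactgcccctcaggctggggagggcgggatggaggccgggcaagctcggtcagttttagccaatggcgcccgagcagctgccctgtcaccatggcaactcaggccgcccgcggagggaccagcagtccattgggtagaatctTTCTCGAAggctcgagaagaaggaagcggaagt
Dnaja1: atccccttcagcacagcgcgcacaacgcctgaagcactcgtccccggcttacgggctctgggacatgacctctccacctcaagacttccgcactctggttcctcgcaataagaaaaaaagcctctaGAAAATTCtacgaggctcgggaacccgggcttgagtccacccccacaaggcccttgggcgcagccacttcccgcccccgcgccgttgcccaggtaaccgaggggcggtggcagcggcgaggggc
Hspa5: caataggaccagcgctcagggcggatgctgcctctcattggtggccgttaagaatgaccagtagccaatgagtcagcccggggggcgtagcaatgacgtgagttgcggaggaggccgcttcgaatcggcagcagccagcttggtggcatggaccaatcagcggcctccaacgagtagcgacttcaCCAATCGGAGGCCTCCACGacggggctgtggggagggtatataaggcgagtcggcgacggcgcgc

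None of the 4 motifs was found in the window of Ahsa1. A pair of facing units stood 33 to 26 bases before the start of Hsph1 and 124 to 117 bases before the first listed start of Dnaja1, a start that was not matched in the GENCODE transcripts. The other 2 listed starts of Dnaja1 were matched there, and their windows held none of the motifs. These letters are common, since 12.8% of the 32851 windows of the table hold them. The run of 3 units was in 0.466% of windows and in 0 of the 7 genes. The listed starts of Dnajb1, Stip1 and Bag3 were not matched in the GENCODE transcripts either. Their windows may therefore not be the promoters in use, and a missing motif there is not read as a result. The endoplasmic reticulum stress element, which is known to drive BiP when unfolded proteins accumulate there, stood 65 to 47 bases before the start of Hspa5 and was in 0.113% of all windows. TATAAA was in 12.4% of windows and, among the 7 genes, in that before the unmatched start of Stip1. No printed motif overlapped another. A match is a description of the letters, and the libraries did not measure binding of any factor.

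Depth ran from 14008287 recovered reads in silent replicate 1 to 22294938 in silent replicate 4. Genes with a value above 0 numbered 16613 to 20990 in place libraries and 14176 to 17899 in silent libraries. The summed level of the 6 pyramidal markers lay between 3618 and 5628 reads per 1000000 (RPM) in place libraries and between 4005 and 5675 in silent libraries, so the labelled cell type was present in each. RPM are reads recovered from the deposited values per 1000000 reads of the library, after trimmed mean of M-values (TMM) scaling between libraries. Markers of oligodendrocytes, the myelin-forming cells, summed to 198.6 to 3454 RPM in place and to 118.4 to 590.9 in silent libraries, and all 10 tested members of that list had higher fitted levels in place, with Ermn at 0 in every silent library. Astrocyte markers reached 2774 RPM in place replicate 3 and at most 590.5 elsewhere. Microglial markers summed to 5.598 to 201 RPM in place and to 28.8 to 249 in silent libraries. Interneuron markers summed to 26.8 to 211 RPM in place and to 66.7 to 198 in silent libraries. The first 3 principal components of the tested genes set silent replicate 1, silent replicate 4 and place replicate 3 apart, with 22.8%, 16.6% and 15.8% of the variance. The Y-linked gene Eif2s3y was present in all 4 silent libraries (351 to 805 RPM) and in place replicate 1 (709 RPM), with 0 reads in the other 4 place libraries. The part these differences play in the chaperone levels was not tested beyond the values given beside the results.

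Ahsa1 stood at 31.2, 40.6, 20.2, 27.9 and 31.7 RPM in place replicates 1 to 5 and at 87.0, 61.5, 68.3 and 153 RPM in silent replicates 1 to 4. All 5 place libraries were below all 4 silent libraries, with the highest place value in replicate 2 and the lowest silent value in replicate 2. The means were 30.3 ± 7.39 RPM (SD, n = 5) and 92.4 ± 41.6 RPM (SD, n = 4), a 3.04-fold higher mean in silent libraries. The fitted log2 fold, place minus silent, was -1.55 with a standard error of 0.37. These values rest on 386 to 3447 reads of Ahsa1 per library. Of all 15232 genes tested, 0.597% were lower in place with no overlap between the groups, and nothing is read from this share for Ahsa1, which was chosen for that contrast. Reads of Eif2s3y were in all 4 silent libraries and, of the place libraries, in replicate 1 only, where Ahsa1 was at 31.2 RPM. The split of this Y-linked gene thus nearly follows the groups. For Ahsa1, and likewise for its partners and the listed genes below, the 2 differences cannot be told apart. With a term for the level of oligodendrocyte markers the fold was -1.08. Without the 3 libraries set apart, an alternative added after the values were seen, it was -0.99. Groups that do not overlap stay so by construction when libraries are left out, so only the fold is given. Where a library holds several nuclei, fewer nuclei with the transcript and less transcript per nucleus cannot be told apart.

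**Figure D1:**
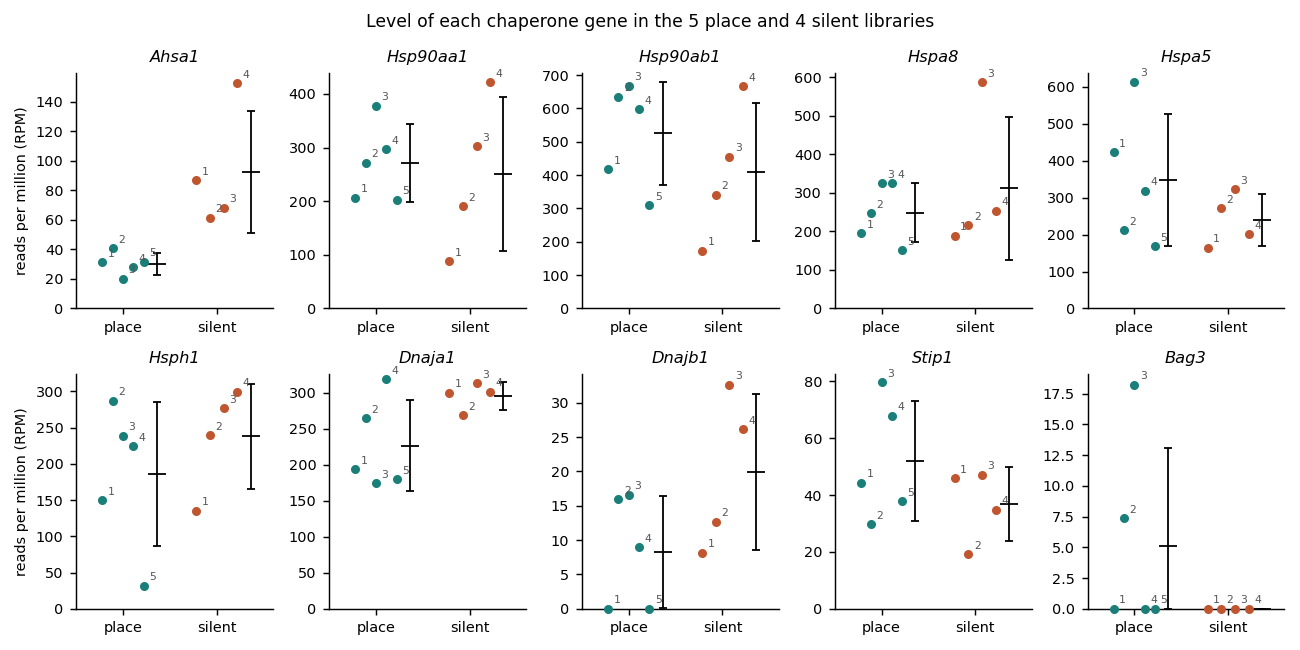
Level of each of the 10 genes in RPM (vertical axis, starting at 0, a scale of its own in each panel) in the 5 place and 4 silent libraries; numbers are replicates, and bars are means with SD, drawn no lower than 0. In the Ahsa1 panel the 4 silent points, from 61.5 to 153, lie above the 5 place points, while the points of the 2 groups overlap in the other 9 panels.

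Of the 9 partners, 8 passed the filter on low values and were tested, and the place and silent values separated in 0 of these 8. Among all tested genes 0.597% were separated and lower in place and 1.27% separated and higher, so that 0 of 8 is near the background. Fitted levels were lower in place for 4 partners (Dnajb1, Hsph1, Dnaja1 and Hspa8) and higher for 4 (Stip1, Hsp90ab1, Hspa5 and Hsp90aa1), beside 41.3% lower and 58.7% higher among all genes tested. The median log2 fold was 0.03 over the 8 tested partners and 0.19 over all tested genes. By limma with Benjamini-Hochberg adjustment, 0 of the 8 passed the threshold of 0.05, with adjusted p from 0.864 to 0.920, and 0 passed at an unadjusted p of 0.05. Among all tested genes 0% were called in that fit (smallest adjusted p 0.431), while 1.33% were lower and 3.74% higher at an unadjusted p of 0.05. A p that misses the threshold does not show that a partner is unchanged, and the intervals below give the sizes that remain possible.

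**Figure D2:**
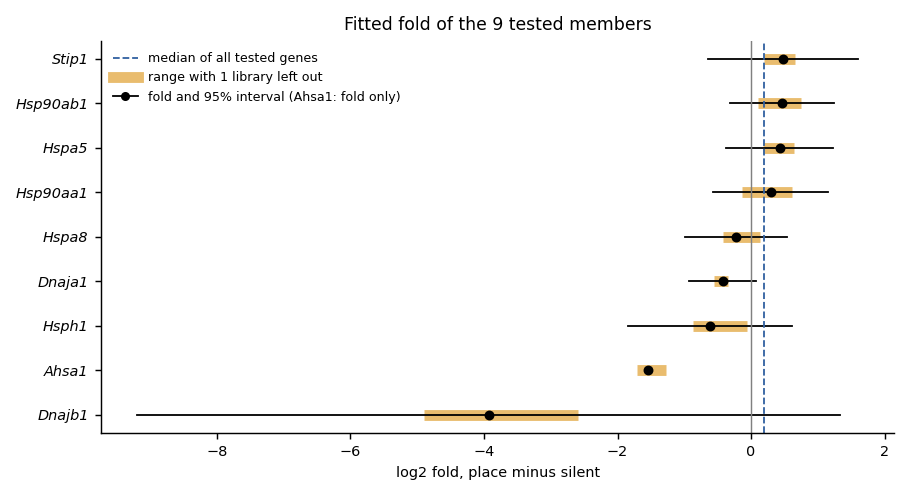
Fitted log2 fold, place minus silent (horizontal axis), of the 9 tested genes, with the 95% interval as a line, the range over fits with 1 library left out as a broad bar, and the median of all tested genes as a dashed line at 0.19. The intervals of all 8 partners include 0; Ahsa1, at -1.55, is drawn without an interval because it was chosen for this contrast.

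The 2 cytosolic HSP90 genes, whose products AHA1 binds, overlapped widely between the groups. Hsp90aa1, the stress-inducible form, was at 207, 272, 378, 297 and 203 RPM in place replicates 1 to 5 and at 88.5, 190, 303 and 422 RPM in silent replicates 1 to 4. The silent libraries held both the lowest and the highest value. The log2 fold was 0.29 (95% interval -0.57 to 1.15, adjusted p = 0.904 by limma), and it was -0.13 without silent replicate 1. Hsp90ab1, the constitutive form, was at 418, 634, 668, 597 and 309 RPM in place and at 173, 341, 455 and 666 RPM in silent libraries. Its lowest value was again in silent replicate 1, while silent replicate 4 matched the highest place libraries. The log2 fold was 0.46 (95% interval -0.31 to 1.24, adjusted p = 0.864 by limma), and it was 0.10 without silent replicate 1. Hsp90aa1 made up 30.01% to 39.97% of the reads of the pair in every library, 34.4% ± 3.62 in the place group (SD, n = 5) and 37.1% ± 2.80 in the silent group (SD, n = 4). The coding sequences of the pair are similar, and how reads that match both were counted is not stated in the sources at hand.

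The HSP70 chaperones varied between single libraries more than between groups. Hspa8 encodes HSC70, the constitutive cytosolic HSP70 that also uncoats clathrin vesicles at synapses. It was at 195, 247, 324, 325 and 152 RPM in place and at 189, 216, 587 and 254 RPM in silent libraries. Silent replicate 3 stood above every other library, and the other 3 silent values lay within the place range. The log2 fold was -0.23 (95% interval -0.99 to 0.53, adjusted p = 0.920 by limma) and turned to 0.13 without silent replicate 3.

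Hspa5, which encodes BiP, the HSP70 of the endoplasmic reticulum, was at 423, 212, 614, 319 and 168 RPM in place and at 164, 271, 323 and 201 RPM in silent libraries. Place replicates 3 and 1 were the highest, and the other 3 place libraries lay in the silent range. The log2 fold was 0.43 (95% interval -0.37 to 1.23, adjusted p = 0.864 by limma). It was -0.31 with a term for oligodendrocyte markers, which summed to 1534, 1996, 3454, 314.8 and 198.6 RPM in place replicates 1 to 5, and -0.17 when the 3 libraries set apart were left out.

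Hsph1, an HSP110 protein that acts as a nucleotide exchange factor and holdase beside HSP70, was at 150, 287, 239, 225 and 31.7 RPM in place and at 136, 240, 277 and 300 RPM in silent libraries. Place replicate 5 was the lowest, with the next library, silent replicate 1, at 136 RPM. The log2 fold was -0.61 (95% interval -1.84 to 0.61, adjusted p = 0.865 by limma) and -0.06 without that library. It was -1.59 with a term for oligodendrocyte markers and -1.05 with a term for the number of genes detected, and passed the threshold in neither.

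Among the tested partners, Dnaja1 had the most place libraries below all silent ones. This class A J-domain protein, which hands clients to HSP70 and stimulates its ATPase, was at 193, 264, 174, 319 and 180 RPM in place and at 300, 268, 313 and 301 RPM in silent libraries. Of the 5 place libraries, 4 lay below all silent libraries, and place replicate 4 lay above all of them. The means were 226 ± 63.2 RPM (SD, n = 5) and 296 ± 19.0 RPM (SD, n = 4). The log2 fold of -0.43 (95% interval -0.93 to 0.08) did not pass the threshold (limma, adjusted p = 0.864). Leaving out place replicate 4, the one place library above them, separates the groups of Dnaja1 by construction (log2 fold -0.56), and 1.18% of all tested genes were lower in place with no overlap without that library.

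Dnajb1, the class B J-domain protein HSP40 that is strongly induced by heat shock, was low. Place libraries held 0, 15.95, 16.6, 8.99 and 0 RPM and silent libraries 8.19, 12.7, 32.6 and 26.1 RPM. The 2 place libraries with 0 reads set the low end, where a count of 0 allows up to 0.202 RPM in place replicate 1 and 0.160 in place replicate 5 from counting error, and the 2 highest values were silent. The mean in place was 0.418 times that in silent libraries. The fitted log2 fold of -3.93 (95% interval -9.19 to 1.33, adjusted p = 0.864 by limma) is set in large part by the pseudocount in the libraries at 0.

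Stip1 and Bag3 link the 2 chaperone systems to each other and to protein clearance. Stip1 encodes HOP, the scaffold that holds HSP70 and HSP90 together during client transfer. It was at 44.3, 29.7, 79.7, 68.0 and 37.8 RPM in place and at 45.9, 19.2, 47.2 and 34.8 RPM in silent libraries. The 2 highest values were in place replicates 3 and 4, and the rest overlapped (log2 fold 0.48, 95% interval -0.64 to 1.61, adjusted p = 0.870 by limma). Bag3, an HSP70 exchange factor that directs clients to selective autophagy, had reads only in place replicate 2 (7.38 RPM) and place replicate 3 (18.2 RPM). It was at 0 in the other 7 libraries, where a count of 0 allows at most 0.216 RPM, and it did not pass the filter. With values in 2 libraries it fell below the 3 asked for in the recovery of reads. Its reads rest on a predicted number per gene of 0.239, beside 1.95 to 5.75 for the other members. The levels of Bag3 are therefore less certain than theirs.

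Reads of Ahsa1 were also set relative to HSP90 reads of the same library, a measure that needs no scaling between libraries. They are the same reads for which the gene was chosen. Both HSP90 genes had higher fitted levels in place (log2 fold 0.29 and 0.46), which widens the gap. With a term for the number of genes detected their folds were 0.06 and 0.16. Groups that do not overlap on this measure are thus no further result for Ahsa1. Ahsa1 gave 4.998, 4.48, 1.93, 3.13 and 6.20 reads per 100 reads of Hsp90aa1 plus Hsp90ab1 in place and 33.3, 11.6, 9.02 and 14.0 in silent libraries. The place mean was 0.244 times the silent mean, and 0.211 to 0.359 times with 1 library left out. Without the 3 libraries set apart it was 0.456 times. The high value of silent replicate 1 goes with the lowest HSP90 levels of the 9 libraries.

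Of the 6 tested partners on this measure, only Dnajb1 also had groups that did not overlap. It gave 0, 1.76, 1.59, 1.01 and 0 reads per 100 HSP90 reads in place and 3.13, 2.39, 4.31 and 2.40 in silent libraries. In RPM its groups overlapped, with silent replicate 1 (8.19) below place replicates 2 to 4 (15.95, 16.6 and 8.99). Silent replicate 1 had the lowest levels of Hsp90aa1 and Hsp90ab1 (88.5 and 173 RPM), which raises its ratio. Place replicates 1 and 5 had 0 reads of Dnajb1. Of all tested genes, 0.742% were lower and 0.702% higher in place with no overlap on this measure, and no test was made. Hsph1 gave 21.97 ± 9.46 in place (SD, n = 5) and 40.3 ± 10.5 in silent libraries (SD, n = 4), with place replicate 2 (31.7) above silent replicate 4 (27.6). Dnaja1 gave 29.5 ± 7.70 and 58.5 ± 38.5, and Hspa8 31.1 ± 3.36 and 53.4 ± 25.8, and for both the lowest silent value, in replicate 4, fell within or below the place range. Hspa5 (43.7 ± 18.7 and 43.8 ± 18.8) and Stip1 (6.60 ± 1.87 and 7.66 ± 6.74) had closer means and overlapped.

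**Figure D3:**
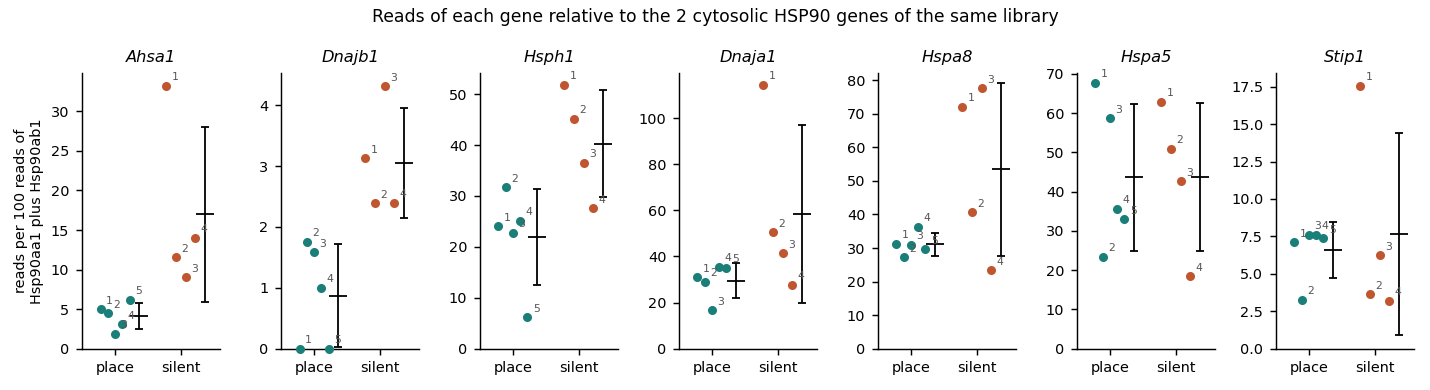
Reads of 7 genes per 100 reads of Hsp90aa1 plus Hsp90ab1 in the same library (vertical axis, starting at 0, a scale of its own in each panel) for 5 place and 4 silent libraries; numbers are replicates, and bars are means with SD. The silent values of Ahsa1 (9.02 to 33.3) and Dnajb1 (2.39 to 4.31) lie above all their place values, and the groups overlap for the other 5 genes.

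Per length the members ranged widely. In reads per kilobase of exon per 1000000 reads (RPKM), averaged over the 9 libraries, Hsp90ab1 was highest at 188, followed by Hspa8 at 116, Hspa5 at 79.8, Hsp90aa1 at 77.5, Hsph1 at 49.6, Dnaja1 at 44.5, Ahsa1 at 42.1, Stip1 at 21.4, Dnajb1 at 4.20 and Bag3 at 1.11. Neighbours in this order overlapped in their ranges over libraries in every case. The value of Bag3 carries the limit on its reads given above. Ahsa1 held 22.03 ± 5.36 RPKM in place (SD, n = 5), close to the mean of Stip1 there (24.6 ± 10.0), and 67.1 ± 30.2 in silent libraries (SD, n = 4), close to that of Hspa5 (63.9 ± 18.9). Exon lengths came from GENCODE M21 on GRCm38, which is not the build named in the submitters' processing notes.

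From library to library the HSP90 pair moved together. On the log2 scale Hsp90aa1 and Hsp90ab1 had r = 0.948 over the 9 libraries (exact permutation test over pairings, two-sided p = 0.000419, adjusted p = 0.0117 over 28 partner pairs). Spearman's rho was 0.900 (exact permutation p = 0.00203, adjusted p = 0.0568), and r was 0.856 without silent replicates 1 and 4, the libraries farthest from the median of Hsp90aa1. Within groups, after removing each group's mean, r was 0.955. With silent replicate 1 left out, r was 0.868 and the adjusted p 0.115 by the same exact permutation test.

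Of the 28 pairs of tested partners this was the only one past the threshold in the fit with all libraries. A positive r was found in 24 of the 28, with a median of 0.43. The share over all pairs of genes was not computed, so this count is not read as a result about the partners. Of all tested genes, 0.046% had a higher r with Hsp90aa1 than Hsp90ab1 had, 15.6% than Hspa8 and 58.1% than Dnaja1. Hsph1 and Dnajb1, which both serve HSP70, had r = 0.798 (exact permutation p = 0.0149, adjusted p = 0.209) and rho = 0.854 (exact permutation p = 0.00539, adjusted p = 0.0755). Their r was 0.936 without place replicate 5 and silent replicate 1. It fell to 0.665 with place replicate 5 alone left out, the library with the lowest Hsph1 level (31.7 RPM) and 0 RPM of Dnajb1. With place replicate 1 left out this pair passed as well (r = 0.976, adjusted p = 0.0205), and with silent replicate 1 left out it was the pair that passed (r = 0.827, adjusted p = 0.0417), both by the exact permutation test. The next pairs were Dnaja1 with Dnajb1 (r = 0.662) and Hspa8 with Hsph1 (r = 0.643), with adjusted p of 0.425 each by the exact permutation test.

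**Figure D4:**
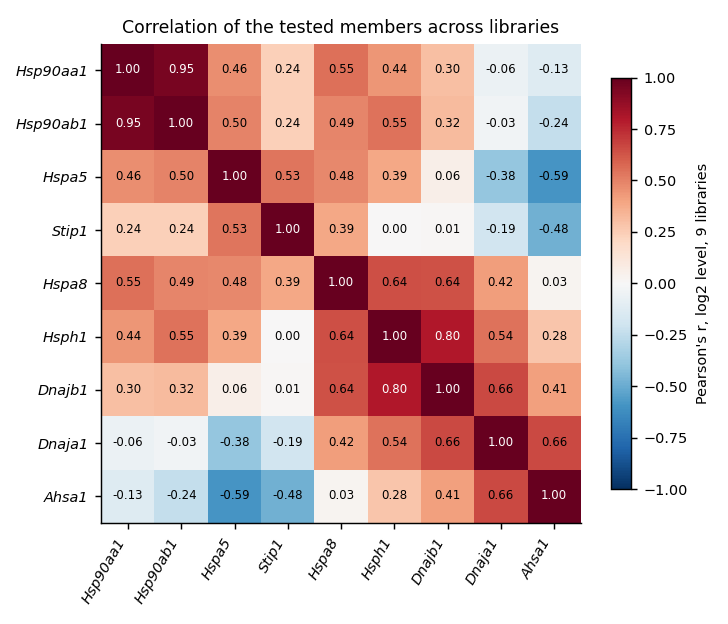
Pearson's r of log2 levels across the 9 libraries for each pair of the 9 tested genes, on a colour scale from -1 (blue) to 1 (red). The HSP90 pair has the highest value (0.95), and the row of Ahsa1 runs from -0.59 with Hspa5 to 0.66 with Dnaja1.

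As a description over the 9 libraries, with no test because Ahsa1 was chosen for the split between the groups, the r of Ahsa1 was -0.13 with Hsp90aa1 and -0.24 with Hsp90ab1. With 1 library left out these ran from -0.66 to 0.28 and from -0.69 to 0.06, the lowest values in both cases without silent replicate 4. The highest r was with Dnaja1 (0.66), and 2.25% of all tested genes had a higher one with Ahsa1. It was 0.41 with Dnajb1, 0.28 with Hsph1 and 0.03 with Hspa8, and it was -0.48 with Stip1 and -0.59 with Hspa5. Within groups the r with Dnaja1 was 0.29 and with Hsp90aa1 0.16.

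The genes whose levels were most like those of Ahsa1 over the 9 libraries, leaving out predicted-model symbols, were none of its partners. They included Naca (r = 0.931), a subunit of the complex that binds nascent polypeptides at the ribosome, Ddx47 (r = 0.915), an RNA helicase, Rnf103 (r = 0.897), a ubiquitin ligase of the endoplasmic reticulum, and Mospd2 (r = 0.892), a membrane contact site protein. Naca was at 43.0 ± 4.48 RPM in place (SD, n = 5) and 59.5 ± 9.10 in silent libraries (SD, n = 4). Mospd2 was at 25.9 ± 15.9 and 118 ± 63.6 RPM. Because they were chosen for following Ahsa1, their difference between groups is no separate result.

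The wider chaperone network was read from 11 lists, and 0 of their tested genes passed the threshold (limma, adjusted p), beside 0% of all genes. Of 18 HSP90 cochaperones 10, Ahsa1 among them, had lower and 8 higher fitted levels in place, beside 41.3% lower among all tested genes. The list, with Ahsa1 counted, had a median log2 fold of -0.10, beside 0.19 over all tested genes. The groups overlapped in all of the 18 but Ahsa1, which was chosen for this contrast. Of all tested genes 0.597% were lower and 1.27% higher in place with no overlap. The most abundant of that list were Chordc1, a CHORD-domain cochaperone (266 ± 36.4 RPM in place, 314 ± 79.1 in silent), and Ppid, the cyclophilin CYP40 (199 ± 32.4 and 252 ± 179). Ahsa2, the close relative of Ahsa1, was at 23.4 ± 7.04 and 16.2 ± 12.7 RPM, with a log2 fold of 0.99 (limma, adjusted p = 0.865). Fkbp4, the immunophilin FKBP52 that serves steroid receptors, was at 21.4, 19.1, 14.4, 24.3 and 21.5 RPM in place and at 29.3, 23.2, 61.4 and 81.9 RPM in silent libraries. Place replicate 4 (24.3) lay above silent replicate 2 (23.2), so the groups of Fkbp4 overlapped, and its log2 fold was -1.12 ± 0.48 (SE, limma adjusted p = 0.864). Ahsa2 and Fkbp4 were named after their values were seen.

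The 4 HSP90 genes had 0 lower and 4 higher fitted levels, with a median of 0.24, close to the 0.19 of all tested genes. Hsp90b1, the HSP90 of the endoplasmic reticulum, averaged 276 ± 25.4 RPM in place and 272 ± 93.5 in silent libraries. Of 13 HSP70 and HSP110 chaperones 6 were lower and 7 higher (median 0.25). Hspa12a, a divergent member of the HSP70 family, was at 399 ± 78.8 and 433 ± 111 RPM. Hspa1a, the heat-inducible HSP70 (named after its values were seen), was at 12.2, 4.96, 50.6, 10.1 and 0 RPM in place and at 0 in all 4 silent libraries. Its copy Hspa1b was at 12.2, 15.5, 0, 36.1 and 0 in place and 0, 17.2, 57.5 and 0 in silent libraries, and since reads of the 2 copies can be split between them, neither value is certain alone.

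Of 13 J-domain proteins of classes A and B 7 were lower and 6 higher (median -0.09). Dnaja2, the abundant class A relative of Dnaja1, averaged 195 ± 88.5 RPM in place and 346 ± 88.1 in silent libraries, and its log2 fold of -0.94 ± 0.37 (SE) had an adjusted p of 0.864 by limma. Of 7 class C members 4 were lower and 3 higher (median -0.15), with Dnajc7 at 175 ± 59.0 and 212 ± 24.3 RPM and Dnajc10 at 152 ± 43.3 and 133 ± 19.6. Of 9 tested nucleotide exchange factors 5 were lower and 4 higher (median -0.04). Bag6, which guards membrane proteins on their way to insertion or breakdown, was at 133 ± 37.2 and 160 ± 24.0 RPM, and Bag4 at 116 ± 41.7 and 82.4 ± 56.4. Of 10 chaperonin genes 4 were lower and 6 higher (median 0.13), led by the ring subunits Cct8 (109 ± 46.0 and 162 ± 70.6 RPM) and Cct5 (118 ± 19.6 and 134 ± 30.1).

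Heat shock regulators and small heat shock proteins added no separated gene. Hsf1, the factor that drives the heat shock response, averaged 70.0 ± 32.1 RPM in place and 77.7 ± 54.7 in silent libraries, and its inhibitor Hsbp1 at 112 ± 39.9 and 112 ± 22.6. Of the 3 tested genes of this list 2 were lower and 1 higher (median -0.06). Of 7 small heat shock proteins only Cryab passed the filter, at 19.3 ± 16.6 and 6.41 ± 7.34 RPM, while Hspb1 was at 0.604 ± 1.32 and 3.07 ± 5.02. Cryab is also expressed by oligodendrocytes, and the part of these cells in its level was not tested. Their marker sums were above every silent library in place replicates 1 to 3 and within the silent range in place replicates 4 and 5.

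Among 18 endoplasmic reticulum chaperones and stress genes 5 were lower and 13 higher (median 0.13), and Ddit3, the stress-induced transcription factor CHOP, had groups that did not overlap (13.6 ± 1.82 RPM in place, 5.14 ± 4.35 in silent). Among 14 tested client kinases and steroid receptors of HSP90 8 were lower and 6 higher (median -0.14). The most abundant were Braf (365 ± 155 and 324 ± 82.7 RPM) and Cdk5 (193 ± 39.2 and 256 ± 72.8). The kinase Akt1 was higher in every place library than in any silent one, at 47.5 ± 5.88 RPM against 22.2 ± 14.7. Both Ddit3 and Akt1 (limma, adjusted p = 0.864 each) were named after their values were seen, beside 1.27% of all tested genes that were higher in place with no overlap.

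**Figure D5:**
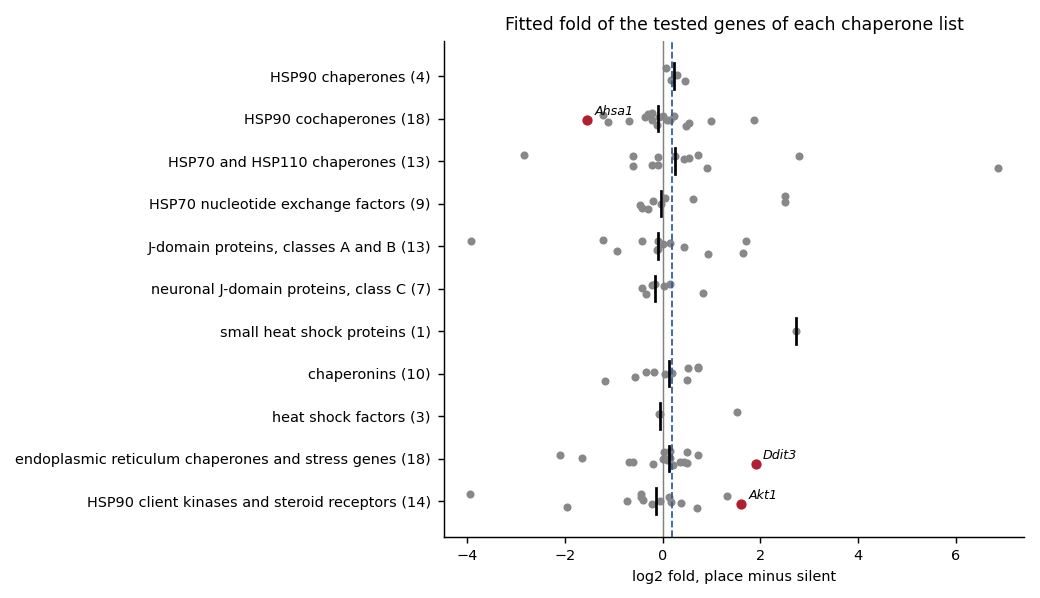
Fitted log2 fold, place minus silent (horizontal axis), of every tested gene of 11 chaperone, stress and client lists, with the number tested in brackets, the list median as a black tick and the median of all tested genes as a dashed line at 0.19. Red points mark the 3 genes whose groups do not overlap, Ahsa1 on the left and Ddit3 and Akt1 on the right.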

How the data were processed

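Nuclear RNA of 5 place and 4 silent libraries was read from 1 deposited table of normalized read signal with 31052 gene symbols. STAR, HTSeq and GRCm39 are listed in the submitters' processing notes without version or role. Annotation, strand setting and normalization tool are not stated there. From the values, the authors' deposited signal is a gene's whole reads times 1 number per gene, with none per library. That number matched a TMM factor per gene (reference gene Ezh2, within 0.01 on the log2 scale). Dividing by it gave whole reads, within 0.05, for 15204 of the 15232 genes tested (99.8%). Depth was summed over the 20350 genes recovered with values in at least 3 libraries. The precision of a level follows from 14008287 to 22294938 reads per library, and limits on counts of 0 (3 counts) cover counting error only, since reads carry no molecular identifiers.

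Libraries were scaled by TMM (30% and 5% trims). The filter asked for a value of 10 or more in 4 or more libraries, and limma 3.58.1 (R 4.3.3, intensity trend) was run on log2(value + 1), with Benjamini-Hochberg adjustment and 0.05 as threshold. Folds are given on that scale, where the pseudocount shrinks changes of low genes and a library at 0 can enlarge them. Groups come from the sample titles. The fit and the recovery of reads were tested on simulated data first. The members and lists were chosen with earlier results of these data known. Named genes are the 10 members, the 2 most abundant of each list, the 5 most like Ahsa1 (1 of them is not reported here), and those said to be named after their values were seen. Correlations were tested by exact permutation over pairings. Alternatives were other scalings, pseudocounts and filters, voom, 2 covariates and leaving out libraries. Protein sequences were not used here.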

Additional observations from a re-analysis of the deposited data

Results flagged for a closer look

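In groups of 4 or 5 libraries, the members' levels and their ratios to HSP90 reads were searched for a library whose distance from its nearest neighbour takes most of the group's range. Of 34 groups 2 held such a library, and chance alone gives about 1 in 20. Hspa8 stood at 587 RPM in silent replicate 3, with the next silent library at 254 RPM. Stip1 stood at 3.27 reads per 100 HSP90 reads in place replicate 2, with the next place library at 7.10.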

How the results depend on the processing

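Each fold was recomputed under 21 alternatives. That of Ahsa1 ran from -1.71 to -0.99. Its direction is no result, since Ahsa1 was chosen for this contrast. With groups that do not overlap, leaving out libraries cannot turn it. The fold of Ahsa1 moved by more than the spread between replicates (0.473 on the log2 scale) only without silent replicates 1 and 4 and place replicate 3 together (-0.99). There the ratio of Ahsa1 to HSP90 reads, place over silent, moved to 0.456, and this alternative was chosen after seeing the data. With the oligodendrocyte term the fold of Ahsa1 moved nearly as far as that spread, to -1.08. With 1 library left out the fold of Ahsa1 ran from -1.71 to -1.27. Of 168 partner folds under alternatives 0 passed the threshold (smallest adjusted p 0.706, limma) and 4 changed direction: Hsp90aa1 without silent replicate 1 (-0.13), Hspa8 without silent replicate 3 (0.13), and Hspa5 with the oligodendrocyte term (-0.31) and without the 3 libraries (-0.17); the cause was not tested. With 1 library left out the fold of Hsp90aa1 ran from -0.13 to 0.62, that of Hspa8 from -0.41 to 0.13 and that of Hsp90ab1 from 0.10 to 0.75. With the oligodendrocyte term the other folds were 0.34 (Hsp90aa1), 0.37 (Hsp90ab1), -0.62 (Hspa8), -1.59 (Hsph1), -0.27 (Dnaja1), -6.54 (Dnajb1) and 0.38 (Stip1). With a term for the number of genes detected the fold of Ahsa1 was -1.56. Those of the partners were then 0.06 (Hsp90aa1), 0.16 (Hsp90ab1), -0.44 (Hspa8), 0.63 (Hspa5), -1.05 (Hsph1), -0.67 (Dnaja1), -6.16 (Dnajb1) and 0.91 (Stip1). The count of members with separated groups ran from 1 to 2 with 1 library left out, and the 2 are Ahsa1 and Dnaja1. Over the whole table voom on recovered reads called 4 genes (Hexim2, Spock1, 2700029L08Rik and Gm44750), and with 1 library left out 0 to 1 were called (Eif2s3y, without place replicate 1); none belongs to the members or lists. Of the partner pairs, 0 passed with Spearman's rho and 1 to 2 with 1 library left out. The pair that passed was Hsph1 with Dnajb1 in place of the HSP90 pair without silent replicate 1, and both pairs passed without place replicate 1. The median fold over all genes tested was 0.19, with 41.3% of them lower in place. After quantile normalization these values were 0.01 and 49.4%, and with the term for the number of genes detected -0.04 and 51.8%. In each of these fits 5 of the 9 tested members were lower, Ahsa1 among them. Tests by edgeR and DESeq2 on the recovered reads were not run. No paired analysis was possible because the replicate numbers were given in accession order and pair no libraries. Libraries at 0 allow up to 0.202 RPM of Dnajb1 and 0.216 RPM of Bag3 from counting error. Libraries with reads held 8.19 to 32.6 RPM of Dnajb1, and 7.38 and 18.2 RPM of Bag3. Of all tested genes, 42.0% lacked reads in a library. The cause of these counts of 0 was not tested.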
